A study of Homo sapiens with 12 samples.

Results

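The 46 genes described here encode proteins of G2 phase and mitosis: cyclins and the kinase CDK1, mitotic kinases, spindle checkpoint and kinetochore proteins, kinesins, anaphase factors and the transcription factors of this programme. They were chosen by symbol, as known genes of the cell cycle, with earlier results of these data already known. Each matched 1 row among the 58735 genes of the deposited FPKM table (fragments per kilobase of gene length, scaled to a library size that the sources do not define). With a mean of at least 0.5 FPKM in 1 group as the condition for a test, 45 of the 46 were tested, among 14577 genes in all; PRC1 was the exception. The libraries came from HaCaT, an immortalised line of human keratinocytes, and there were 3 for each of 4 groups. PHGDH-siRNA+Mix cells had siRNA against PHGDH and then 24 h of the treatment named Mix, and PHGDH-siRNA cells had that siRNA alone. Control-siRNA+Mix cells had a control siRNA and 24 h of Mix, and Control-siRNA cells had the control siRNA alone, so that all 12 libraries came from transfected cells. PHGDH encodes phosphoglycerate dehydrogenase, which starts serine synthesis. The sources used here name neither the contents of Mix nor the siRNA sequences. The labels do not say that libraries of a group were separate cultures, so a p-value here reflects the spread among libraries alone, and that spread may be technical.

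Genes of this kind are transcribed mostly in G2 and mitosis, so in bulk RNA their level follows the share of cells in these phases as well as the RNA per cell. Cyclin B with CDK1 drives entry into mitosis, Polo and Aurora kinases build the spindle, the checkpoint holds the anaphase-promoting complex in check until kinetochores are attached, and CDC20 then activates it to destroy securin and cyclin B. Transcription of the set is switched on in dividing cells by B-MYB (MYBL2) and FOXM1 with the MuvB complex. The DREAM complex switches it off. This control runs through promoter letters called the CHR (cell cycle genes homology region) and through CCAAT boxes bound by NF-Y. In epidermis, dividing keratinocytes of the basal layer carry these transcripts, and they are lost as the cells leave the cycle and differentiate.

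Each library held 16403845 to 20901128 gene reads, recovered from the steps in its FPKM values. As a check of the siRNA, PHGDH stood at 11.5 to 19.1 FPKM in PHGDH-siRNA+Mix libraries and 26.6 to 31.9 FPKM in Control-siRNA+Mix libraries, and at 16.9 to 23.7 FPKM in PHGDH-siRNA libraries and 36.5 to 56.2 FPKM in Control-siRNA libraries, without overlap in either pair; it passed in neither single comparison by limma (with Mix log2 fold change -1.01, SE 0.207, adjusted p = 0.2; without Mix log2 fold change -1.14, SE 0.207, adjusted p = 0.128) and fell over both mix conditions together (log2 fold change -1.08, SE 0.146, adjusted p = 0.0197). With same-numbered libraries of the mix conditions averaged, none of the 14577 genes passed. Of the 8 keratinocyte markers, 8 had a mean of at least 0.5 FPKM in every group, and their summed level ran from 4568 to 7702 FPKM in PHGDH-siRNA+Mix, 2335 to 6680 in PHGDH-siRNA, 4379 to 4764 in Control-siRNA+Mix and 1864 to 2782 in Control-siRNA. KRT6A and SFN among them rose with Mix in both arms. KRT5 alone had a change below 0 (-0.64 under PHGDH siRNA and -0.56 under control siRNA), which passed in neither arm. Markers of 4 other kinds of cell (fibroblast, melanocyte, leukocyte, endothelial), each summed, did not pass 2.93 FPKM in any library, and COL3A1, a fibroblast collagen, fell with Mix under control siRNA, to a mean of 0.0242 FPKM in Control-siRNA+Mix, against 1.03 FPKM in Control-siRNA. The share of reads from mitochondrial genes was 3.81% to 4.74% in PHGDH-siRNA+Mix and 4.64% to 5.56% in PHGDH-siRNA, and 4.07% to 4.26% in Control-siRNA+Mix and 4.74% to 7.08% in Control-siRNA. What part these shares and markers have in the results with Mix was not tested. Replicate 2 of PHGDH-siRNA+Mix and replicate 2 of PHGDH-siRNA deviate from their groups together (correlation of their deviations over all tested genes 0.775), and counts are given with and without this pair.

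Promoter sequences were at hand for 39 of the 46 genes, as 49 windows of 300 bases from 250 before to 50 after an annotated start (RefSeq, GRCh38.p14). There were none for TTK, FOXM1, BUB3, TPX2, UBE2C, AURKA and BIRC5. The 6 windows printed here show the letters through which this set is known to be controlled, in genes that fell with Mix in both siRNA arms (CCNB2, PLK1, CDCA8, CDCA3 and CCNB1) and in MKI67, which passed no test. They run 5′ to 3′ on the gene's strand. Capitals mark CCAAT and the CHR spellings that were searched, TTTGAA and TTCGAA, each on either strand (so ATTGG is CCAAT read on the other strand). Other spellings of a CHR were not searched, so a window without these capitals may still hold one. In CDCA8 and MKI67 the run TTTGAATTGG holds both, which share 1 letter.
CCNB2, chr15:59104896-59105195, plus strand: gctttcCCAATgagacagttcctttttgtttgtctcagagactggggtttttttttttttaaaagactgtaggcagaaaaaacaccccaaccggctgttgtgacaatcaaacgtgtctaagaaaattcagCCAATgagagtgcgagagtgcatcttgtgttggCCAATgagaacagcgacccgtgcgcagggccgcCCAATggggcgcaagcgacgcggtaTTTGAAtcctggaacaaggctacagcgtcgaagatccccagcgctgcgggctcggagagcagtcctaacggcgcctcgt
PLK1, chr16:23678639-23678938, plus strand: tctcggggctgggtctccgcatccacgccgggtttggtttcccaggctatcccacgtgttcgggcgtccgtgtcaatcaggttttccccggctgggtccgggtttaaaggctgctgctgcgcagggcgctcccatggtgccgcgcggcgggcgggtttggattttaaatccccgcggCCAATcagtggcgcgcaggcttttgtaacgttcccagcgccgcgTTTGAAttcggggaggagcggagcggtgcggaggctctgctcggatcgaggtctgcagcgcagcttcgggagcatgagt
CDCA8, chr1:37692266-37692565, plus strand: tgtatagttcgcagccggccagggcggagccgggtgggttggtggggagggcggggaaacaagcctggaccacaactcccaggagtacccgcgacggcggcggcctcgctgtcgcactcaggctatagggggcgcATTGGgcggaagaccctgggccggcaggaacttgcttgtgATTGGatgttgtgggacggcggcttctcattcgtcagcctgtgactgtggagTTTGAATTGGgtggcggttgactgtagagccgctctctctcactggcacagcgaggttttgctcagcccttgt
CDCA3, chr12:6851237-6851536, minus strand: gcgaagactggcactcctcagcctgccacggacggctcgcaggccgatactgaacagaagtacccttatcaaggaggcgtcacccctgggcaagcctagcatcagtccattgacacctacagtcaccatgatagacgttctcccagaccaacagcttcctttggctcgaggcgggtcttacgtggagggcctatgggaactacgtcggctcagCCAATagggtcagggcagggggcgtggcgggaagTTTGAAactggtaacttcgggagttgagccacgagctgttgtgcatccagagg
CCNB1, chr5:69166900-69167199, plus strand: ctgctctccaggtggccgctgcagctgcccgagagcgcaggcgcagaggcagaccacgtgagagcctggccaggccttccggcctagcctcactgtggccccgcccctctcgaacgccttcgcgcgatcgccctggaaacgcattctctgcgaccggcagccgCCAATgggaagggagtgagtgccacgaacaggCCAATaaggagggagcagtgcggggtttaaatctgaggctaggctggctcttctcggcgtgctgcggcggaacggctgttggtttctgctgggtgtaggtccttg
MKI67, chr10:128126374-128126673, minus strand: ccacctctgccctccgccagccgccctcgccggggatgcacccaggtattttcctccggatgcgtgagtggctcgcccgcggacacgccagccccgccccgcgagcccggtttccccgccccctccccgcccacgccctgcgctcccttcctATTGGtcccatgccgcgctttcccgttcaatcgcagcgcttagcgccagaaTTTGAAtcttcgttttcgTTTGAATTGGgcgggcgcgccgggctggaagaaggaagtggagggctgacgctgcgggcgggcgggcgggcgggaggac

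CCNB2, PLK1, CDCA8 and CDCA3 each held 1 TTTGAA, which began at -29, -29, -23 and -3 relative to the start (base 0), and MKI67 held 2, at -47 and -29. The CCNB1 window held neither TTTGAA nor TTCGAA and 2 CCAAT boxes, at -87 and -55, whereas CCNB2 held 4 CCAAT boxes. Across the set, TTTGAA or TTCGAA was found in 34 of 49 windows (69.4%), against 16.4% of all 35116 promoter windows of the same length and 11.7% of the 13480 windows of tested genes. At least 1 CCAAT was found in 37 of 49 windows (75.5%), against 34.6% of all windows, and 22 windows (44.9%) held 2 or more, against 10.8%. Counted by gene, TTTGAA or TTCGAA was present for 6 of the 12 genes with a window that fell with Mix in both arms, and for 19 of the 20 tested genes with a window that fell in neither, against 15.1% of all tested genes with a window. These matches describe letters, not bound sites, and no test was made on them. Because other spellings of a CHR were not searched, the counts do not show which genes lack one.

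Levels differed widely between the genes on the FPKM scale, which is per gene length. Over the 12 libraries, mean FPKM was highest for CKS2 (262), CDC20 (159), UBE2C (151) and CCNB1 (115) and lowest for PRC1 (0.282), CENPE (1.08), ASPM (2.44) and NUSAP1 (3.06); MKI67 averaged 12.3 and TOP2A 29.3. The median over the 46 genes was 9.5, 21.3 and 12.2 FPKM in the 3 PHGDH-siRNA+Mix libraries and 18.7, 22.9 and 21.5 FPKM in the PHGDH-siRNA libraries. It was 17.2, 17.3 and 17.0 FPKM in the Control-siRNA+Mix libraries and 22.9, 20.8 and 22.1 FPKM in the Control-siRNA libraries. In the control arm the groups do not overlap by this median, and the 3 libraries of each are close together. In PHGDH-siRNA+Mix, replicate 1 is the lowest of all 12 and replicate 2 lies among the libraries without Mix: 42 of the 45 tested genes in replicate 2, and 2 of 45 in replicate 1, stood above the mean of the other 2 libraries of the group.

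**Figure D1:**
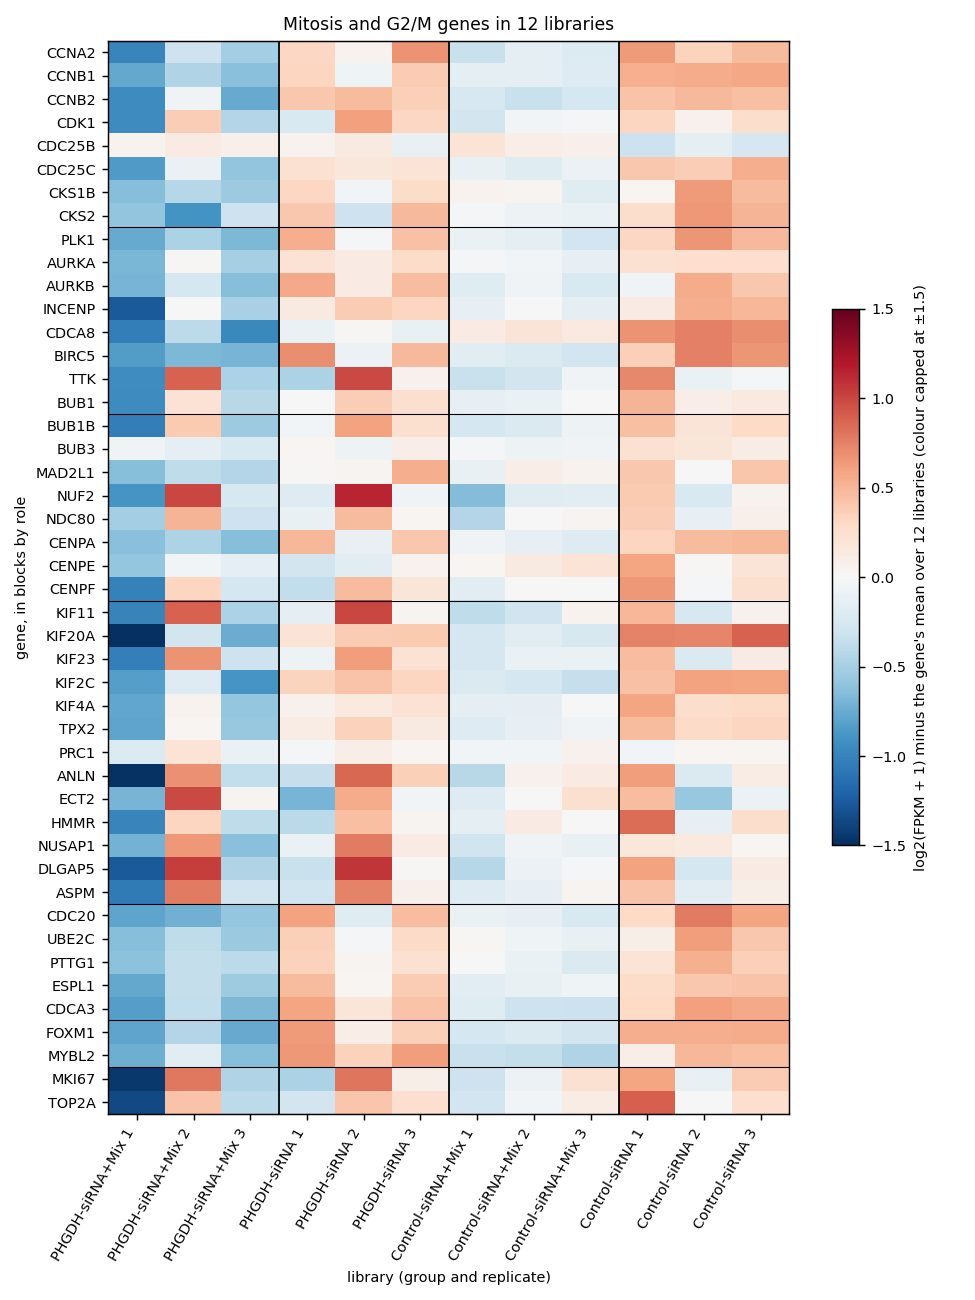
Log2(FPKM + 1) of each of the 46 genes (rows, in blocks by role) in each of the 12 libraries (columns), minus the gene's mean over the 12, with colour capped at 1.5 log2 units either way. Most rows are blue in the PHGDH-siRNA+Mix and Control-siRNA+Mix columns and red in the columns without Mix, CDC25B is the reverse in the control arm, and PHGDH-siRNA+Mix replicate 2 is red for a block of genes that includes MKI67, NUF2 and DLGAP5.

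With Mix, 22 of the 45 tested genes fell under PHGDH siRNA and 14 of 45 fell under control siRNA, and none rose (limma on log2(FPKM + 1), adjusted over all genes). Among all 14577 genes, 3.64% fell and 5.22% rose with Mix under PHGDH siRNA, and 3.92% fell and 5.62% rose under control siRNA. The 14 genes of the control arm were CCNA2, CCNB1, CCNB2, PLK1, CDCA8, BIRC5, CENPA, KIF20A, KIF2C, CDC20, PTTG1, CDCA3, FOXM1 and MYBL2. They are all among the 22 of the PHGDH arm, where CDC25C, CKS1B, CKS2, AURKA, AURKB, MAD2L1, UBE2C and ESPL1 fell too, so the shared genes make up 63.6% of the one list and 100% of the other. The median log2 fold change over the 45 genes was -0.67 under PHGDH siRNA and -0.46 under control siRNA (0.00 over all genes in both arms). Of the 45 changes, 43 were below 0 in each arm, against 49.8% of all genes under PHGDH siRNA and 49.6% under control siRNA. All 3 libraries with Mix lay below all 3 without it for 25 genes under PHGDH siRNA (10.3% of all genes) and for 28 under control siRNA (18.7% of all genes). Because the RNA is from bulk cultures, fewer cells in G2 and mitosis and less of these RNAs per cell cannot be told apart.

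Both counts moved with the libraries and the model used. The 22 genes of the PHGDH arm all fell also without the replicate 2 pair, where 29 fell; fitted on the PHGDH-siRNA groups alone, none passed, and with the replicate number as a block in that fit 25 did. They numbered 12 without PHGDH-siRNA replicate 3 and 14 without PHGDH-siRNA+Mix replicate 3. In the control arm, 3 or 4 genes remained without Control-siRNA replicate 2 or 3 or without any 1 of the Control-siRNA+Mix libraries, 9 with the replicate number as a block, 4 with no filter on low values and in a fit on the control groups alone 22 fell and CDC25B rose. FOXM1, CCNB1 and CDCA3 passed in each of the 14 alternatives run for the control arm. Same-numbered libraries of the PHGDH arms deviate together, and with the replicate block 21 genes fell there: CKS2 and AURKA no longer passed and INCENP did.

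**Figure D2:**
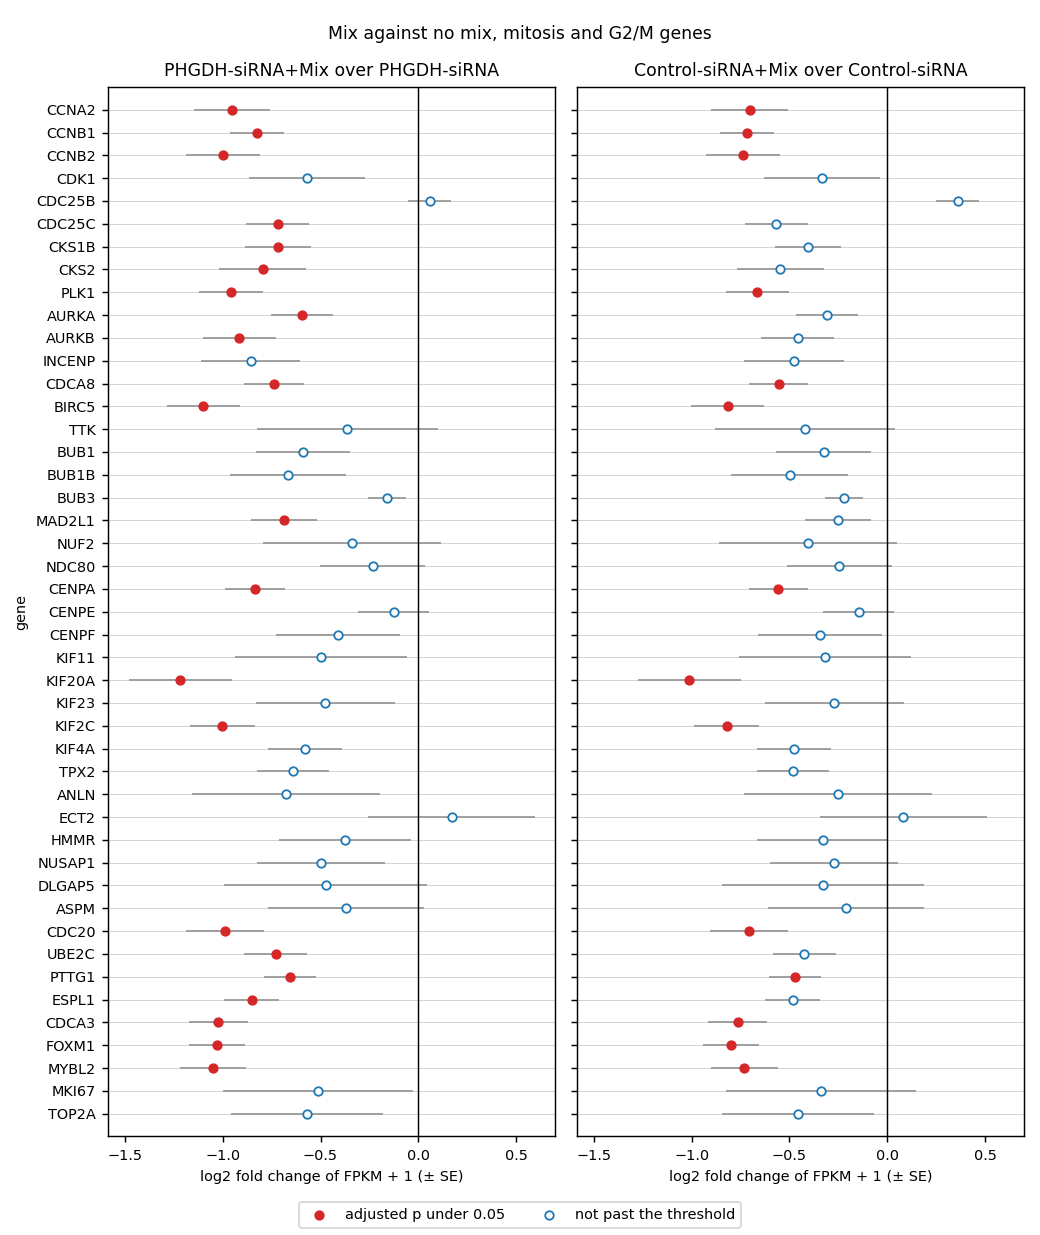
Log2 fold change of FPKM + 1 with Mix (points, with the standard error as bars) for the 45 tested genes in the order of the text, under PHGDH siRNA on the left and under control siRNA on the right; filled points passed an adjusted p of 0.05. There are 22 filled points on the left and 14 on the right, all below 0, and the bars are widest for genes such as DLGAP5, MKI67, ANLN and TTK.

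Of the 8 cyclins, CDK1 and their partners, 6 fell with Mix under PHGDH siRNA and 3 under control siRNA. CCNB1 (ENSG00000134057, chromosome 5, 69167010 to 69178245, plus strand; all coordinates hg38) encodes cyclin B1, which activates CDK1 at entry into mitosis. It measured 64.4, 80.5 and 71.1 FPKM in PHGDH-siRNA+Mix, against 138, 105 and 143 FPKM in PHGDH-siRNA. In the control arm it measured 98.9, 100.2 and 96.1 FPKM in Control-siRNA+Mix, against 159.7, 163 and 165 FPKM in Control-siRNA. With Mix every library lay below every library without it in both arms, and PHGDH-siRNA replicate 2 is the low library of its group. CCNB1 fell 1.79-fold by group means under PHGDH siRNA (log2 fold change -0.82, SE 0.139, adjusted p = 0.00405) and 1.65-fold under control siRNA (log2 fold change -0.72, SE 0.139, adjusted p = 0.00799). CCNB2, the second B-type cyclin, averaged 26.2 ± 9.34 FPKM in PHGDH-siRNA+Mix and 51.4 ± 2.12 FPKM in PHGDH-siRNA (SD, n = 3 each), and fell (log2 fold change -1.0, SE 0.187, adjusted p = 0.00777). It averaged 31.4 ± 1.05 FPKM in Control-siRNA+Mix and 52.9 ± 1.15 FPKM in Control-siRNA, and fell there too (log2 fold change -0.74, SE 0.187, adjusted p = 0.032). CCNA2, cyclin A2 of S and G2 phase, fell under PHGDH siRNA (log2 fold change -0.95, SE 0.195, adjusted p = 0.0126) and, close to the threshold, under control siRNA (log2 fold change -0.70, SE 0.195, adjusted p = 0.0468).

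CDK1 itself (ENSG00000170312, chromosome 10, 60778331 to 60794852, plus strand), the kinase these cyclins activate, passed in neither arm. It measured 10.0, 26.3 and 14.6 FPKM in PHGDH-siRNA+Mix, against 17.1, 31.5 and 25.2 FPKM in PHGDH-siRNA. Under control siRNA it measured 16.5, 19.6 and 19.7 FPKM in Control-siRNA+Mix, against 25.6, 21.1 and 24.5 FPKM in Control-siRNA. In the PHGDH arms the groups overlap and replicate 2 is the highest library of each, while in the control arm all libraries with Mix are the lower ones; the changes were -0.57 (SE 0.295, adjusted p = 0.297) and -0.33 (SE 0.295, adjusted p = 0.594). CKS2 (ENSG00000123975, chromosome 9, 89311198 to 89316703, plus strand), a small subunit that binds CDK1 and the shortest gene of the set at 613 bases, had the highest FPKM of the set. It measured 165, 134 and 201 FPKM in PHGDH-siRNA+Mix, against 332, 201 and 350.3 FPKM in PHGDH-siRNA. It measured 244, 236 and 233 FPKM in Control-siRNA+Mix, against 299, 394 and 357 FPKM in Control-siRNA. Replicate 2 is the lowest library of both PHGDH groups, the opposite of its place for CDK1, and the groups do not overlap in either arm, narrowly so under PHGDH siRNA. CKS2 fell under PHGDH siRNA (log2 fold change -0.80, SE 0.221, adjusted p = 0.0484; adjusted p = 0.0566 with the replicate block) and did not pass under control siRNA (log2 fold change -0.55, SE 0.221, adjusted p = 0.169). CKS1B, its paralogue, fell under PHGDH siRNA (log2 fold change -0.72, SE 0.169, adjusted p = 0.0236), and its control groups overlap (-0.41, adjusted p = 0.18).

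Of the CDC25 phosphatases, which remove inhibitory phosphates from CDK1, CDC25C fell with Mix under PHGDH siRNA and CDC25B passed in neither arm. CDC25C averaged 4.41 ± 1.46 FPKM in PHGDH-siRNA+Mix and 7.69 ± 0.182 FPKM in PHGDH-siRNA (SD, n = 3 each), and it fell (log2 fold change -0.72, SE 0.161, adjusted p = 0.019); under control siRNA its change was -0.57 (adjusted p = 0.0503). CDC25B (ENSG00000101224, chromosome 20, 3786772 to 3806121, plus strand) measured 78.7, 82.3 and 79.6 FPKM in PHGDH-siRNA+Mix, against 78.5, 83.2 and 70.1 FPKM in PHGDH-siRNA. It measured 87, 80.9 and 80.1 FPKM in Control-siRNA+Mix, against 60.4, 68.9 and 63.5 FPKM in Control-siRNA. In the control arm all 3 libraries with Mix are the higher ones, the single such gene of the set (19.1% of all genes), and in the PHGDH arm the groups overlap. The difference passed in neither arm (control siRNA, log2 fold change 0.36, SE 0.11, adjusted p = 0.0671; PHGDH siRNA, log2 fold change 0.06, SE 0.11, adjusted p = 0.821).

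Among the 8 mitotic kinases and members of the chromosomal passenger complex, 5 fell with Mix under PHGDH siRNA and 3 under control siRNA. PLK1 (ENSG00000166851, chromosome 16, 23677656 to 23690367, plus strand), Polo-like kinase 1, which acts from mitotic entry to cytokinesis, measured 19.2, 23.7 and 20.4 FPKM in PHGDH-siRNA+Mix, against 48.9, 32.7 and 45.4 FPKM in PHGDH-siRNA. It measured 30.9, 29.9 and 27.1 FPKM in Control-siRNA+Mix, against 41.3, 53.3 and 47 FPKM in Control-siRNA. Groups with and without Mix do not overlap in either arm, and PHGDH-siRNA replicate 2 is again the low library among those without Mix. PLK1 fell 2.01-fold under PHGDH siRNA (log2 fold change -0.96, SE 0.162, adjusted p = 0.0042) and 1.61-fold under control siRNA (log2 fold change -0.66, SE 0.162, adjusted p = 0.0263). AURKA (ENSG00000087586, chromosome 20, 56369389 to 56392337, minus strand), the Aurora kinase of centrosomes and spindle poles, measured 33.8, 55.7 and 38.6 FPKM in PHGDH-siRNA+Mix, against 64.3, 60.2 and 66.7 FPKM in PHGDH-siRNA. It measured 53.8, 53.6 and 50.3 FPKM in Control-siRNA+Mix, against 64.6, 65.5 and 65.7 FPKM in Control-siRNA. The groups do not overlap in either arm, and PHGDH-siRNA+Mix replicate 2 is the high library of its group. AURKA fell under PHGDH siRNA (log2 fold change -0.60, SE 0.159, adjusted p = 0.0405; adjusted p = 0.0608 with the replicate block) and not past the threshold under control siRNA (log2 fold change -0.31, SE 0.159, adjusted p = 0.298).

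AURKB (ENSG00000178999, chromosome 17, 8204733 to 8210600, minus strand), the kinase of the passenger complex that corrects faulty attachments, measured 35.8, 48.6 and 37.2 FPKM in PHGDH-siRNA+Mix, against 87.4, 63.8 and 80.8 FPKM in PHGDH-siRNA. It measured 51.2, 56.1 and 49.7 FPKM in Control-siRNA+Mix, against 56.3, 86.4 and 77.3 FPKM in Control-siRNA. Libraries with Mix are the lower ones in both arms, and Control-siRNA replicate 1 lies near the Control-siRNA+Mix level. AURKB fell under PHGDH siRNA (log2 fold change -0.92, SE 0.186, adjusted p = 0.0121) and did not pass under control siRNA (log2 fold change -0.46, SE 0.186, adjusted p = 0.17). BIRC5 (ENSG00000089685, chromosome 17, 78214186 to 78225636, plus strand), survivin, a scaffold of the same complex, measured 22.3, 25.1 and 24.6 FPKM in PHGDH-siRNA+Mix, against 66.2, 38.1 and 57 FPKM in PHGDH-siRNA. It measured 36.4, 34.7 and 33 FPKM in Control-siRNA+Mix, against 52.4, 69.2 and 65 FPKM in Control-siRNA. The groups stand apart in both arms, and BIRC5 fell 2.24-fold by group means under PHGDH siRNA (log2 fold change -1.10, SE 0.185, adjusted p = 0.00416) and fell 1.79-fold under control siRNA (log2 fold change -0.82, SE 0.185, adjusted p = 0.0189). CDCA8, borealin, the third of the complex, fell under PHGDH siRNA (log2 fold change -0.74, SE 0.152, adjusted p = 0.0127) and under control siRNA (log2 fold change -0.56, SE 0.152, adjusted p = 0.0434). INCENP, the subunit that anchors AURKB, had changes of -0.86 (adjusted p = 0.064) and -0.48 (adjusted p = 0.318), neither past the threshold, though the first passed with the replicate block (adjusted p = 0.0318).

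The checkpoint kinases BUB1 and TTK did not pass. BUB1 (ENSG00000169679, chromosome 2, 110637698 to 110678114, minus strand), which recruits checkpoint proteins to kinetochores, measured 5.12, 12.6 and 7.78 FPKM in PHGDH-siRNA+Mix, against 10.8, 14.2 and 12.9 FPKM in PHGDH-siRNA. It measured 9.8, 9.93 and 10.7 FPKM in Control-siRNA+Mix, against 15.7, 11.6 and 11.9 FPKM in Control-siRNA. PHGDH-siRNA+Mix replicate 2 lies inside the range of PHGDH-siRNA, so the groups overlap there, and they do not overlap under control siRNA. Its changes were -0.59 (SE 0.242, adjusted p = 0.18) under PHGDH siRNA and -0.32 (SE 0.242, adjusted p = 0.508) under control siRNA. TTK, the kinase MPS1 at the head of the checkpoint, ran from 1.27 to 7.0 FPKM in PHGDH-siRNA+Mix and from 2.10 to 7.58 FPKM in PHGDH-siRNA, replicate 2 being the high library of each; its changes were -0.36 (adjusted p = 0.714) and -0.42 (adjusted p = 0.687).

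Of 8 other checkpoint, kinetochore and centromere genes, 2 fell with Mix under PHGDH siRNA and 1 under control siRNA. CENPA, the histone H3 variant that marks centromeres, averaged 12.6 ± 0.963 FPKM in PHGDH-siRNA+Mix and 23.6 ± 5.27 FPKM in PHGDH-siRNA, and fell (log2 fold change -0.84, SE 0.152, adjusted p = 0.0065). It averaged 17.6 ± 0.89 FPKM in Control-siRNA+Mix and 26.3 ± 1.74 FPKM in Control-siRNA, and fell (log2 fold change -0.56, SE 0.152, adjusted p = 0.0441; n = 3 in each group). MAD2L1, the checkpoint protein that binds CDC20, fell under PHGDH siRNA (log2 fold change -0.68, SE 0.169, adjusted p = 0.0291), and its control groups overlap (-0.25, adjusted p = 0.444). CENPF (ENSG00000117724, chromosome 1, 214603195 to 214664588, plus strand), a large kinetochore protein, measured 1.14, 4.4 and 2.58 FPKM in PHGDH-siRNA+Mix, against 2.33, 4.99 and 3.87 FPKM in PHGDH-siRNA. It measured 2.86, 3.28 and 3.28 FPKM in Control-siRNA+Mix, against 5.75, 3.23 and 4.07 FPKM in Control-siRNA. Groups overlap in both arms, with replicate 2 high in both PHGDH groups and replicate 1 high in Control-siRNA, and the changes were -0.41 (SE 0.317, adjusted p = 0.509) and -0.35 (SE 0.317, adjusted p = 0.614). BUB1B, BUB3, NUF2, NDC80 and CENPE did not pass in either arm, with changes from -0.67 (BUB1B) to -0.13 (CENPE) under PHGDH siRNA and from -0.50 (BUB1B) to -0.15 (CENPE) under control siRNA. BUB1B and BUB3 are checkpoint proteins, NUF2 and NDC80 are 2 subunits of the complex that holds microtubules, and CENPE is a kinetochore motor.

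Of 13 kinesins and spindle or cytokinesis genes, 12 were tested, and the same 2, KIF20A and KIF2C, fell in both arms. KIF20A (ENSG00000112984, chromosome 5, 138178719 to 138187715, plus strand), a kinesin of the central spindle needed for cytokinesis, measured 9.22, 25.6 and 18.1 FPKM in PHGDH-siRNA+Mix, against 36.1, 40.7 and 40.9 FPKM in PHGDH-siRNA. It measured 25.8, 27.4 and 26.1 FPKM in Control-siRNA+Mix, against 52.7, 52.2 and 58.1 FPKM in Control-siRNA. Libraries with Mix are the lower ones in both arms, with PHGDH-siRNA+Mix replicate 1 lowest of all 12 libraries. KIF20A had the largest fall of the set in both arms on the log2(FPKM + 1) scale, and by group means it was 2.23-fold lower under PHGDH siRNA (log2 fold change -1.22, SE 0.264, adjusted p = 0.0166) and 2.06-fold under control siRNA (log2 fold change -1.01, SE 0.264, adjusted p = 0.0357). KIF2C (ENSG00000142945, chromosome 1, 44739818 to 44767767, plus strand), the microtubule-depolymerising kinesin MCAK, measured 14, 22.4 and 13.4 FPKM in PHGDH-siRNA+Mix, against 32.8, 35 and 32.5 FPKM in PHGDH-siRNA. It measured 21.9, 21.3 and 20.1 FPKM in Control-siRNA+Mix, against 35.2, 39.6 and 39.3 FPKM in Control-siRNA. The groups stand apart in both arms, and KIF2C fell by 1.0 under PHGDH siRNA (SE 0.166, adjusted p = 0.00367) and by 0.82 under control siRNA (SE 0.166, adjusted p = 0.0107) on the log2 scale.

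The other 10 did not pass in either arm. TPX2, which activates AURKA on the spindle, changed by -0.64 (adjusted p = 0.0566) and -0.48 (adjusted p = 0.147), and KIF4A, a chromosome-bound kinesin, by -0.58 (adjusted p = 0.0909) and -0.48 (adjusted p = 0.162), in the PHGDH and the control arm. ANLN and ECT2, organisers of the contractile ring, KIF11 and KIF23, kinesins of the spindle and midzone, and the spindle proteins HMMR, NUSAP1, DLGAP5 and ASPM overlapped between the PHGDH groups, with changes from -0.68 (ANLN) to 0.17 (ECT2) there and from -0.33 (HMMR) to 0.08 (ECT2) under control siRNA. ECT2 was one of 2 genes of the set with a change above 0 in each arm, beside CDC25B. DLGAP5, with the widest spread, measured 2.78, 17.5 and 5.65 FPKM in PHGDH-siRNA+Mix, against 6.16, 18.1 and 8.13 FPKM in PHGDH-siRNA. Replicate 2 is about as high in one group as in the other and far above the rest, and the SE of 0.517 compares with a median of 0.189 over the 45 genes.

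The 5 genes grouped here under anaphase promotion and sister separation all fell with Mix under PHGDH siRNA, and 3 of the 5 fell under control siRNA. The group includes CDCA3, although that gene is described below by its part in entry into mitosis. CDC20 (ENSG00000117399, chromosome 1, 43358955 to 43363203, plus strand), which activates the anaphase-promoting complex, measured 85.8, 89.9 and 99.2 FPKM in PHGDH-siRNA+Mix, against 226, 131 and 206 FPKM in PHGDH-siRNA. It measured 139, 136 and 127 FPKM in Control-siRNA+Mix, against 183, 256 and 225 FPKM in Control-siRNA. The groups with Mix are the lower ones throughout, and the spread is in the libraries without Mix. CDC20 fell 2.05-fold under PHGDH siRNA (log2 fold change -0.99, SE 0.20, adjusted p = 0.0117) and 1.65-fold under control siRNA (log2 fold change -0.71, SE 0.20, adjusted p = 0.0493). PTTG1 (ENSG00000164611, chromosome 5, 160421822 to 160428744, plus strand), securin, the inhibitor of separase, measured 36.3, 43.4 and 42.3 FPKM in PHGDH-siRNA+Mix, against 71.3, 57.6 and 65.5 FPKM in PHGDH-siRNA. It measured 55.7, 52.1 and 47.9 FPKM in Control-siRNA+Mix, against 64.6, 81.1 and 71.8 FPKM in Control-siRNA. It fell in both arms without overlap of groups (log2 fold change -0.66, SE 0.133, adjusted p = 0.0116 under PHGDH siRNA; log2 fold change -0.47, SE 0.133, adjusted p = 0.0491 under control siRNA).

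ESPL1 (ENSG00000135476, chromosome 12, 53268299 to 53293643, plus strand), separase, which cuts cohesin, measured 6.04, 8.35 and 7.34 FPKM in PHGDH-siRNA+Mix, against 15.7, 11.3 and 14.7 FPKM in PHGDH-siRNA. It measured 9.77, 10.1 and 10.5 FPKM in Control-siRNA+Mix, against 13.6, 14.9 and 15.2 FPKM in Control-siRNA. All libraries with Mix lie below those without it in each arm. ESPL1 fell under PHGDH siRNA (log2 fold change -0.85, SE 0.14, adjusted p = 0.00354) and came close under control siRNA (log2 fold change -0.48, SE 0.14, adjusted p = 0.0546). CDCA3, which promotes entry into mitosis, fell to 7.67 ± 1.42 FPKM in PHGDH-siRNA+Mix, against 16.6 ± 2.47 FPKM in PHGDH-siRNA (log2 fold change -1.02, SE 0.151, adjusted p = 0.00192), and to 9.99 ± 0.617 FPKM in Control-siRNA+Mix, against 17.8 ± 2.16 FPKM in Control-siRNA (log2 fold change -0.76, SE 0.151, adjusted p = 0.00936; SD, n = 3 each). UBE2C, the E2 enzyme of the anaphase-promoting complex, fell under PHGDH siRNA (log2 fold change -0.73, SE 0.16, adjusted p = 0.0173) and not past the threshold under control siRNA (log2 fold change -0.42, SE 0.16, adjusted p = 0.14).

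Both transcription factors fell in both arms. FOXM1 (ENSG00000111206, chromosome 12, 2857681 to 2877155, minus strand), the forkhead activator of G2/M genes, measured 17.7, 22.9 and 18.2 FPKM in PHGDH-siRNA+Mix, against 49.4, 33.7 and 40.5 FPKM in PHGDH-siRNA. It measured 26, 26.8 and 25.8 FPKM in Control-siRNA+Mix, against 46.2, 46.2 and 46.6 FPKM in Control-siRNA. Within the control arm the libraries of a group lie close together, and in the PHGDH arm replicate 2 of each group is the one nearest to the other group. FOXM1 had the lowest adjusted p of the set in both arms (log2 fold change -1.03, SE 0.144, adjusted p = 0.00133 under PHGDH siRNA, 2.1-fold; log2 fold change -0.80, SE 0.144, adjusted p = 0.00541 under control siRNA, 1.77-fold). MYBL2 (ENSG00000101057, chromosome 20, 43667019 to 43716496, plus strand), B-MYB, measured 37.7, 56.3 and 40.4 FPKM in PHGDH-siRNA+Mix, against 99.9, 80.6 and 97.8 FPKM in PHGDH-siRNA. It measured 50.1, 48.9 and 46 FPKM in Control-siRNA+Mix, against 67.7, 89.9 and 86.6 FPKM in Control-siRNA. Mix separates the groups in both arms without overlap, and MYBL2 fell 2.07-fold under PHGDH siRNA (log2 fold change -1.05, SE 0.171, adjusted p = 0.00338) and 1.69-fold under control siRNA (log2 fold change -0.73, SE 0.171, adjusted p = 0.0214).

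The markers most used to count dividing cells, MKI67 and TOP2A, passed in neither arm. MKI67 (ENSG00000148773, chromosome 10, 128096659 to 128126385, minus strand), the Ki-67 protein that coats mitotic chromosomes, measured 3.48, 20.1 and 7.91 FPKM in PHGDH-siRNA+Mix, against 7.83, 20.2 and 12.1 FPKM in PHGDH-siRNA. It measured 8.87, 10.6 and 13.4 FPKM in Control-siRNA+Mix, against 17.4, 10.3 and 14.9 FPKM in Control-siRNA. PHGDH-siRNA+Mix replicates 1 and 2 are the lowest and the second highest of the 12 libraries, and the groups overlap in both arms. Its changes were -0.51 (SE 0.485, adjusted p = 0.603) under PHGDH siRNA and -0.34 (SE 0.485, adjusted p = 0.773) under control siRNA. TOP2A (ENSG00000131747, chromosome 17, 40388516 to 40417950, minus strand), topoisomerase II alpha, which untangles sister chromatids, measured 10.2, 37.1 and 20.7 FPKM in PHGDH-siRNA+Mix, against 22.5, 36.9 and 32.8 FPKM in PHGDH-siRNA. It measured 22.3, 26.6 and 29.7 FPKM in Control-siRNA+Mix, against 52.1, 27.4 and 32.8 FPKM in Control-siRNA. The same 2 libraries are its extremes in PHGDH-siRNA+Mix, Control-siRNA replicate 1 is its highest, and its changes were -0.57 (SE 0.389, adjusted p = 0.443) and -0.46 (SE 0.389, adjusted p = 0.577). With these standard errors, falls of the size seen for FOXM1 or CCNB1 lie within 2 SE of the MKI67 values.

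**Figure D3:**
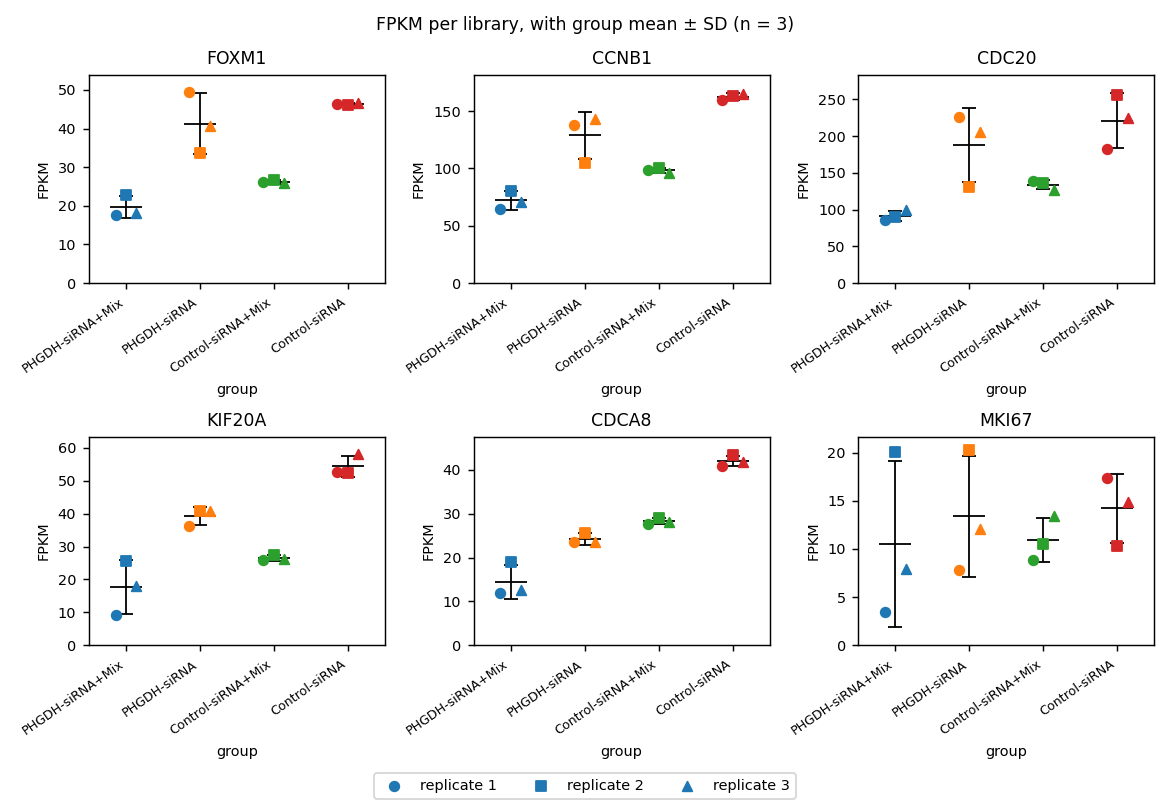
FPKM of FOXM1, CCNB1, CDC20, KIF20A, CDCA8 and MKI67 (y axes from 0) in each library (marker shape gives the replicate) with the group mean and SD as lines (n = 3). For the first 4 genes and CDCA8 the libraries with Mix lie below those without it in each siRNA arm, CDCA8 is also lower under PHGDH siRNA in both mix conditions, and the MKI67 groups overlap.

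PHGDH siRNA against control siRNA gave no gene of the set past the threshold with Mix or without it, by limma or by limma-voom on recovered reads. Over all 14577 genes 0.0206% passed with Mix and 0.0412% without. With Mix, 40 of the 45 genes were lower in PHGDH-siRNA+Mix (50.3% of all genes), the median was -0.34 (0.00 over all genes), 16 had an unadjusted p under 0.05 (5.72% of all genes) and 17 had no overlap between groups with all PHGDH-siRNA+Mix libraries below (7.33% of all genes). That median was -0.16 without PHGDH-siRNA+Mix replicate 1 and -0.54 without replicate 2. Without Mix, 32 of 45 were lower in PHGDH-siRNA (48.7% of all genes), the median was -0.13 (0.01 over all genes), 3 had an unadjusted p under 0.05 (6.41% of all genes) and 7 lay below without overlap (5.3% of all genes); this median was -0.06 without Control-siRNA replicate 1 and -0.05 without PHGDH-siRNA replicate 1. Without the replicate 2 pair, CDCA8, CCNB2 and KIF2C fell with Mix and CDCA8 fell without it, and without PHGDH-siRNA+Mix replicate 2 alone CDCA8 fell with Mix.

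CDCA8 (ENSG00000134690, chromosome 1, 37692418 to 37709719, plus strand), borealin, which targets the chromosomal passenger complex to centromeres, had the largest siRNA difference of the set in both conditions. It measured 11.8, 19 and 12.5 FPKM in PHGDH-siRNA+Mix, against 27.6, 29 and 28.1 FPKM in Control-siRNA+Mix. Without Mix it measured 23.6, 25.7 and 23.5 FPKM in PHGDH-siRNA, against 40.9, 43.4 and 41.8 FPKM in Control-siRNA. All PHGDH siRNA libraries lie below all control libraries of the same mix condition, and the PHGDH-siRNA libraries without Mix are also below the Control-siRNA+Mix libraries. The level was 1.96-fold lower with Mix (log2 fold change -0.95, SE 0.152, adjusted p = 0.0872) and 1.73-fold lower without it (log2 fold change -0.77, SE 0.152, adjusted p = 0.164), past the threshold in neither. Averaged over both mix conditions, CDCA8 was the single gene of the set to pass (it fell; log2 fold change -0.86, SE 0.107, adjusted p = 0.0134), where 0.233% of all genes fell. That call held in 14 of 21 alternatives, with adjusted p from 0.000216 to 0.451. It was lost without Control-siRNA replicate 2 or 3, without any 1 of the Control-siRNA+Mix libraries, without PHGDH-siRNA replicate 3, and when same-numbered libraries of the mix conditions were averaged. Without the replicate 2 pair 8 genes passed in this average, with CCNB1, CCNB2, CDC25C, KIF20A, KIF2C, KIF4A and TPX2 added; without PHGDH-siRNA+Mix replicate 2, 3 genes did (CDC25C and KIF2C beside CDCA8).

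The next genes by unadjusted p did not pass. CCNB1, with the library values given above, was 1.37-fold lower in PHGDH-siRNA+Mix than in Control-siRNA+Mix (log2 fold change -0.45, SE 0.139, adjusted p = 0.636) and 1.26-fold lower in PHGDH-siRNA than in Control-siRNA (log2 fold change -0.35, SE 0.139, adjusted p = 0.715), without overlap in either pair. ESPL1 lay below in PHGDH-siRNA+Mix without overlap (log2 fold change -0.44, SE 0.14, adjusted p = 0.642). CDC25B lay above in PHGDH-siRNA without overlap (log2 fold change 0.26, SE 0.11, adjusted p = 0.751), the single gene of the set to do so without Mix (4.89% of all genes). With Mix, all 5 genes of the anaphase group, CDCA3 among them, lay below in PHGDH-siRNA+Mix without overlap. Their changes ran from -0.54 (CDC20) to -0.35 (PTTG1). PLK1, AURKB, CDCA8 and BIRC5 also lay below without overlap. KIF20A was -0.67 (adjusted p = 0.8) and FOXM1 -0.41 (adjusted p = 0.73). MYBL2 overlapped in both conditions (-0.13 with Mix and 0.19 without). MKI67 and TOP2A had changes of -0.32 and -0.37 with Mix, with SE of 0.485 and 0.389.

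**Figure D4:**
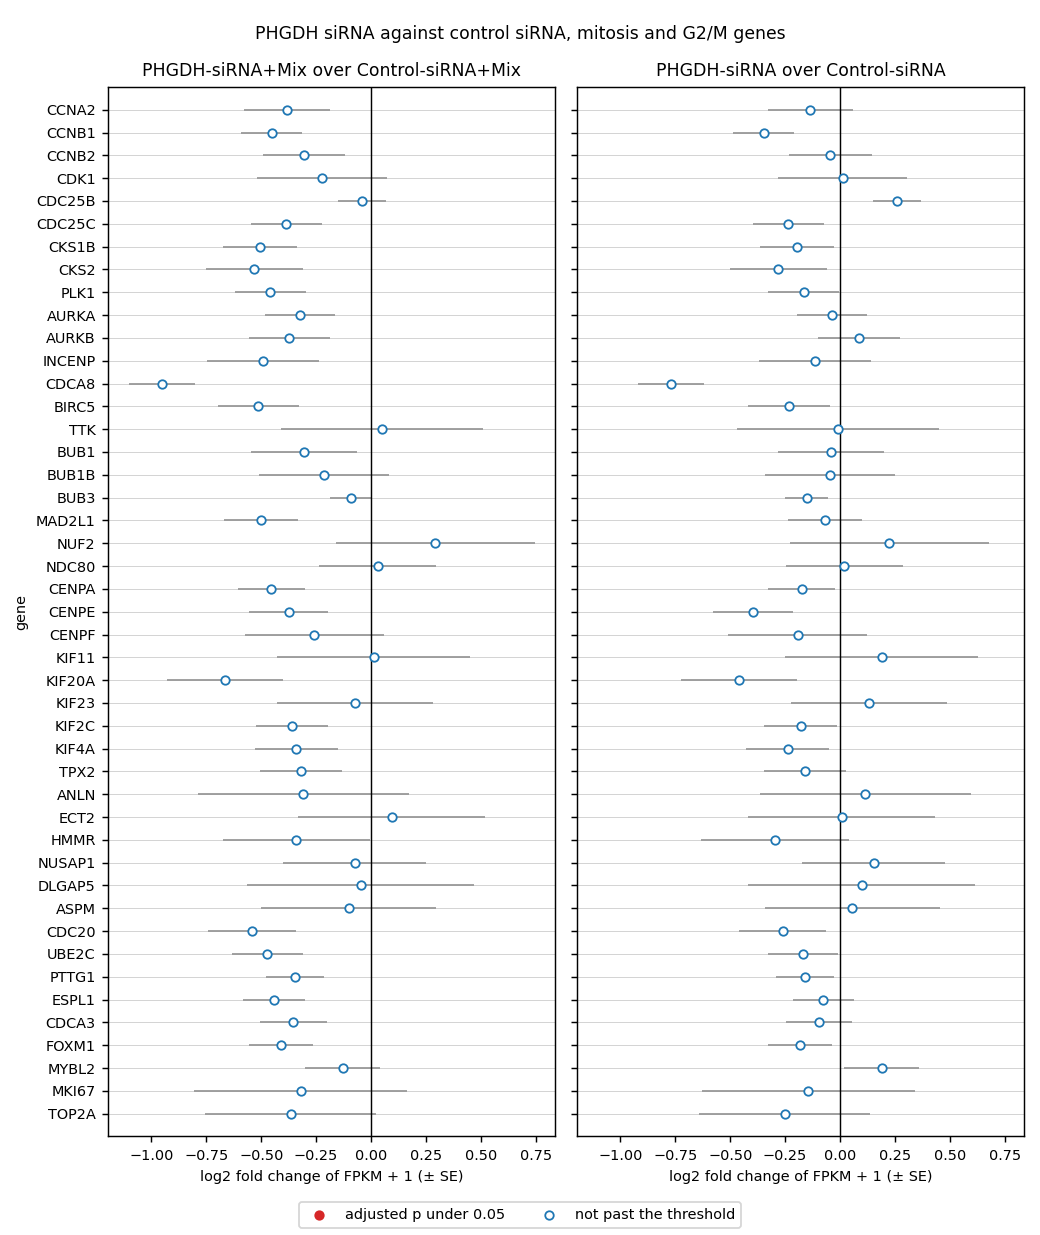
Log2 fold change of FPKM + 1 under PHGDH siRNA against control siRNA (points, with the standard error as bars) for the 45 tested genes, with Mix on the left and without Mix on the right. No gene passed an adjusted p of 0.05; 40 points on the left and 32 on the right lie below 0, and CDCA8 is the lowest in both panels.

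Whether the fall with Mix was larger under PHGDH siRNA was tested as an interaction. It passed for none of the 45 genes by limma, had an unadjusted p under 0.05 for none of them either, and passed for 0 of all 14577 genes (0%; 250, or 1.72%, had an unadjusted p under 0.05). The difference was below 0 for 39 of the 45 genes (50.9% of all genes), with a median of -0.20. Without PHGDH-siRNA+Mix replicate 1 that median was 0.01, and without replicate 2 it was -0.40. The 3 genes with the lowest unadjusted p were CDC25B (difference -0.30, SE 0.155), ESPL1 (-0.37, SE 0.198) and MAD2L1 (-0.43, SE 0.239), each with an adjusted p of 0.9999. The 8 genes that passed with Mix under PHGDH siRNA alone are therefore not shown to differ between the arms: for AURKB, the largest difference among all 45, it was -0.46 (SE 0.263).

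Calls and standard errors in the set varied with gene length. The genes were split into the 15 shortest (613 to 3338 bases of merged exons), the middle 15 (3362 to 4760) and the 15 longest (4860 to 12807). Under PHGDH siRNA, 14 of the shortest 15, 4 of the middle 15 and 4 of the longest 15 fell with Mix, and under control siRNA 8, 4 and 2 did. All tested genes were split at the same limits, into those up to 3338 bases, those above that and up to 4760, and those longer. Of these, 3.5%, 5.1% and 3.19% fell under PHGDH siRNA and 3.42%, 5.22% and 3.91% under control siRNA. The median changes with Mix were -0.80, -0.58 and -0.51 under PHGDH siRNA, and -0.56, -0.48 and -0.32 under control siRNA. The median SE was 0.169, 0.264 and 0.317 in the 3 classes of the set, whereas in those of all tested genes it was 0.222, 0.173 and 0.162. The median SE thus rose with length in this set and fell with length among all genes.

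Over the 45 genes, the deviation of a library from the mean of the other 2 of its group had a Spearman correlation with gene length of 0.40 in PHGDH-siRNA+Mix replicate 2, 0.43 in PHGDH-siRNA replicate 2, 0.57 in Control-siRNA+Mix replicate 3 and 0.58 in Control-siRNA replicate 1. Over all 14577 genes the same 4 libraries gave 0.17, 0.17, 0.23 and 0.25; these values are across genes that share a library and are a description only. The most negative value was in Control-siRNA replicate 2 (-0.60 over the 45 and -0.24 over all genes). With the trend on length removed from every library, 21 genes fell with Mix under PHGDH siRNA (AURKA no longer passed), and 11 fell and CDC25B rose under control siRNA, where CCNA2, CCNB2 and CDCA8 no longer passed.

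**Figure D5:**
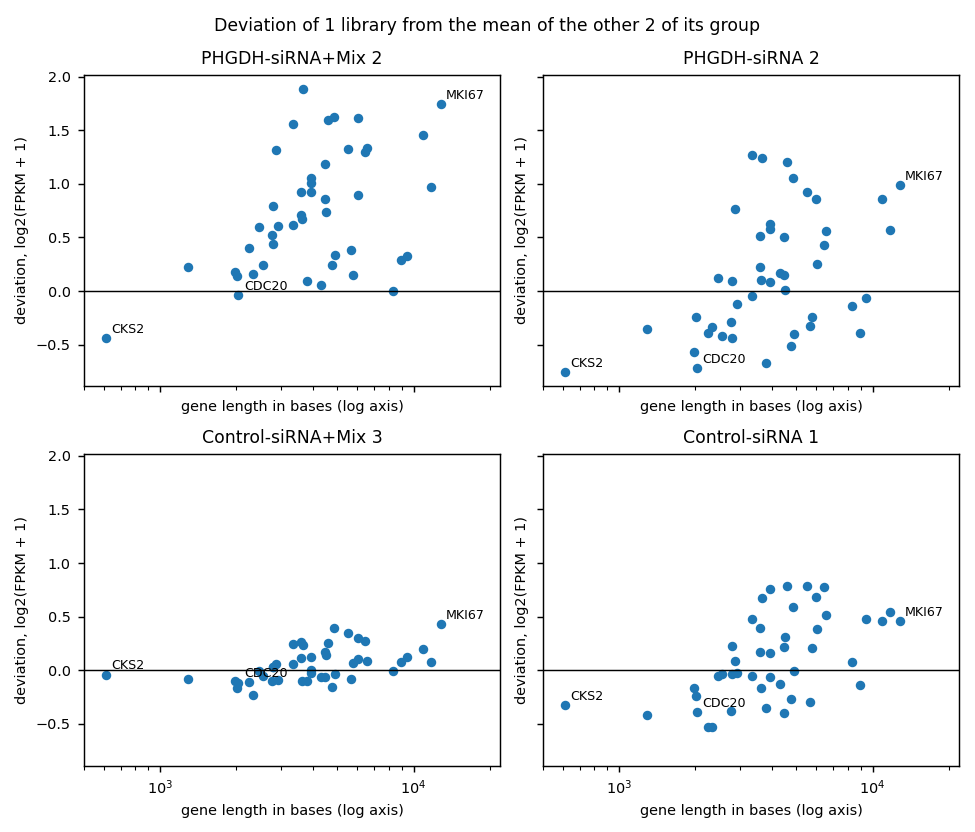
Deviation of 1 library from the mean of the other 2 of its group in log2(FPKM + 1) (y axis) against gene length in bases (x axis, log scale) for the 45 tested genes, in the library of each group with the highest correlation. In all 4 panels the shortest gene, CKS2, lies below 0 and the longest, MKI67, above it; in PHGDH-siRNA+Mix replicate 2 nearly all points are above 0.

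PRC1, which bundles microtubules of the central spindle, was listed at 0.112, 0.469 and 0.196 FPKM in PHGDH-siRNA+Mix and 0.251, 0.368 and 0.311 FPKM in PHGDH-siRNA, and at 0.239, 0.246 and 0.342 FPKM in Control-siRNA+Mix and 0.241, 0.304 and 0.306 FPKM in Control-siRNA. In GENCODE 29, 57.6% of its exon bases also belong to other genes on the same strand, and AC068831.7 has the largest overlap. That model was itself at 0.432 ± 0.279 FPKM in PHGDH-siRNA+Mix, 0.735 ± 0.418 in PHGDH-siRNA, 0.465 ± 0.0792 in Control-siRNA+Mix and 0.617 ± 0.160 in Control-siRNA (SD, n = 3 each). Counting could split or drop reads in shared exons, so the level of PRC1 is uncertain. The same holds for NUSAP1, which shares 62.2% of its exon bases with other genes on its strand (largest overlap AC087721.2). To a lesser extent it holds for BUB1B (10.2%, largest BUB1B-PAK6) and CENPA (6.96%, largest SLC35F6). The sources used here do not say whether counting used strand, so reads could also mix with those of genes on the other strand. The share of exon bases concerned, with the gene of largest overlap, was 15.9% for FOXM1 (ITFG2), 12.5% for PLK1 (AC008870.3) and 9.71% for CDCA3 (GNB3). It was 9.08% for CCNA2 (EXOSC9), 8.78% for CDC25C (FAM53C) and 5.05% for KIF20A (BRD8).

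Further genes of the same phase also fell with Mix. Their list and that of the S phase genes below were, like the set, chosen with earlier results of these data known. Of 62 other mitosis and G2/M genes, 26 fell with Mix under PHGDH siRNA and 10 under control siRNA (3.64% and 3.92% of all genes), and none rose, with median changes of -0.63 and -0.40. CENPM, a centromere protein, averaged 8.13 ± 1.06 FPKM in PHGDH-siRNA+Mix and 18.2 ± 3.11 FPKM in PHGDH-siRNA (log2 fold change -1.06, SE 0.157, adjusted p = 0.00193), and 9.88 ± 0.802 FPKM in Control-siRNA+Mix and 22.9 ± 3.88 FPKM in Control-siRNA (log2 fold change -1.12, SE 0.157, adjusted p = 0.00109; SD, n = 3 each). KIF22, a chromosome-bound kinesin, fell by 1.17 under PHGDH siRNA (adjusted p = 0.000977) and by 0.89 under control siRNA (adjusted p = 0.00476), and OIP5, which loads CENPA, by 0.86 (adjusted p = 0.0045) and 0.83 (adjusted p = 0.00514).

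Of 43 genes of DNA replication and S phase, the phase before, 31 fell with Mix under PHGDH siRNA and 24 under control siRNA (3.64% and 3.92% of all genes). All 43 changes were below 0 in each arm, against 49.8% of all genes under PHGDH siRNA and 49.6% under control siRNA (medians -0.85 and -0.60). MCM3, a subunit of the replicative helicase, measured 22.4, 25.4 and 21.3 FPKM in PHGDH-siRNA+Mix, against 55.9, 51.5 and 52 FPKM in PHGDH-siRNA. It measured 28.7, 27.8 and 25.7 FPKM in Control-siRNA+Mix, against 55.8, 59.3 and 60.8 FPKM in Control-siRNA. Its groups stand far apart, with no library out of place (log2 fold change -1.17, SE 0.106, adjusted p = 7.35e-05 under PHGDH siRNA; log2 fold change -1.07, SE 0.106, adjusted p = 9.11e-05 under control siRNA). MCM2 fell by 1.20 (adjusted p = 0.000161) and 0.94 (adjusted p = 0.000688), MCM4 by 1.04 (adjusted p = 0.000371) and 0.84 (adjusted p = 0.00129), and RFC2, a clamp loader subunit, by 0.93 (adjusted p = 0.000671) and 0.90 (adjusted p = 0.000707), in the PHGDH and the control arm. No member of either list passed in a comparison of PHGDH siRNA with control siRNA.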

How the data were processed

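RNA-seq was done on 12 HaCaT libraries in 4 groups of 3. The submitters' processing notes name the build hg38 and the tools featureCounts 1.5.0-p3, HISAT2 2.0.5 and CASAVA, without roles or settings; the labels' protocols name a NEBNext Ultra RNA kit. The authors deposited FPKM per gene, without log transformation; 100% of values up to 200 reads were whole reads within 0.05 reads, and these recovered reads served a voom alternative only. Gene models were matched to GENCODE 29.

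The 14577 genes whose mean reached 0.5 FPKM in some group entered a single limma 3.58.1 model (R 4.3.3, trend and robust options) of log2(FPKM + 1) with a mean per group over all 12 libraries, 8 residual degrees of freedom, two-sided, Benjamini-Hochberg adjusted over all tested genes, threshold 0.05. Fold changes on this scale understate those of genes at few FPKM; fold values by means are ratios of mean FPKM. An exact permutation test of 3 against 3 cannot go below p = 0.1. The script was checked on simulated counts with independent libraries and no length trend, so the check does not cover the correlated replicates seen here. Members and lists were chosen with earlier results of these data known. All 46 members are reported; with values in every library are a panel of 15, the 4 largest changes called per comparison or the 3 lowest unadjusted p, and CDCA3, DLGAP5, PRC1 and the remaining genes were described after their values were seen; of each other list, the 3 lowest adjusted p are named, except 1 gene that is not reported here. Precision is limited by 3 libraries per group and, at few reads, by counting error. Replicate numbers were checked by correlating same-numbered libraries' deviations from their group means: 5 of 18 pairs were above 0.1 (-0.387 to 0.775), and within the PHGDH arms all 3 were (0.69, 0.775 and 0.459). Alternatives changed the pseudocount (0.1), the filter, the scaling, the libraries in the fit, the block and the length trend; the length trend, its fit with the block, the block in the PHGDH arms alone and averaged same-numbered libraries were added after seeing the data.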

Additional observations from a re-analysis of the deposited data

How the results depend on the processing

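Under control siRNA, 14 members fell, against 4 with no filter on low values, 9 with the replicate block, 9 with the length trend removed and the replicate block, 23 (22 lower, 1 higher) with only the groups compared, and 3 to 11 with 1 library left out. Under PHGDH siRNA, 22 fell, against 0 with only the groups compared, 25 with only those groups and the replicate block, and 12 to 28 with 1 library left out. For PHGDH siRNA against control siRNA, 0 members passed with Mix, against 3 without the replicate 2 pair and 0 to 1 with 1 library left out. Without Mix, 0 passed, against 1 without that pair and 0 throughout with 1 library left out. Averaged over both mix conditions 1 passed, against 0 with same-numbered libraries averaged, 8 without the pair and 0 to 3 with 1 library left out. The interaction stayed at 0 in every alternative run. The cause of these moves was not tested. Fits with fewer libraries have fewer degrees of freedom, and the counts rose in some of these fits and fell in others. The fit with no filter tests 32520 genes. A pseudocount of 0.1 and rescaled FPKM gave the same 14 and 22 genes; voom on recovered reads gave 13 (CENPA lost) and 23 (TPX2 gained). Over single genes and alternatives, 0 calls reversed, 154 were lost and 47 gained. A fit on the groups compared is the main fit itself for the interaction and the average, and was not run apart.

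Replicate numbers pair the libraries of the PHGDH arms by their correlation, where the replicate block gave 21 members with Mix. Over all groups they do not, and for the control arm (-0.288, 0.046 and -0.112) the block is a change of model only. It left 0 members in both siRNA comparisons and 1 in the average.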

Other observations

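Regulators around the set moved with Mix in both directions; these lists, like the set, were chosen with earlier results known. Of 16 tested inhibitors of the cell cycle, 3 rose and 2 fell with Mix under PHGDH siRNA, and 2 rose and 3 fell under control siRNA (among all genes 5.22% rose and 3.64% fell under PHGDH siRNA, and 5.62% rose and 3.92% fell under control siRNA). CDKN1A, the CDK inhibitor p21, measured 336, 167 and 253 FPKM in PHGDH-siRNA+Mix, against 96.2, 46.9 and 73.7 FPKM in PHGDH-siRNA. It measured 179, 172 and 171 FPKM in Control-siRNA+Mix, against 44.7, 58.3 and 56.1 FPKM in Control-siRNA. All libraries with Mix are the higher ones, and replicate 2 is the low library of both PHGDH groups; CDKN1A rose in both arms (log2 fold change 1.79, SE 0.279, adjusted p = 0.00265 under PHGDH siRNA; log2 fold change 1.70, SE 0.279, adjusted p = 0.00303 under control siRNA). SFN, 14-3-3 sigma, which holds CDK1 and cyclin B in the cytoplasm, rose too (log2 fold change 1.05, SE 0.229, adjusted p = 0.0169, and log2 fold change 1.26, SE 0.229, adjusted p = 0.00559).

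Of 22 tested DREAM, MuvB, NF-Y and E2F genes, 3 fell with Mix under PHGDH siRNA and 6 under control siRNA, and none rose; among all genes 3.64% fell under PHGDH siRNA and 3.92% under control siRNA, which also holds beside the counts that follow. E2F2, an activator of S phase genes, averaged 0.654 ± 0.267 FPKM in PHGDH-siRNA+Mix and 3.29 ± 0.344 FPKM in PHGDH-siRNA (log2 fold change -1.39, SE 0.145, adjusted p = 0.000186), and 1.15 ± 0.0446 FPKM in Control-siRNA+Mix and 4.0 ± 0.627 FPKM in Control-siRNA (log2 fold change -1.21, SE 0.145, adjusted p = 0.000362; SD, n = 3 each). Only the 3 genes with the lowest adjusted p in each arm are named. E2F1 fell under PHGDH siRNA (log2 fold change -0.99, SE 0.157, adjusted p = 0.00283), and its change under control siRNA is not given here. E2F1 is not shown to differ between the arms (interaction by limma, difference -0.42, adjusted p = 0.9999). Its partner TFDP1 fell in both arms (-0.53, adjusted p = 0.0132, and -0.50, adjusted p = 0.0164). LIN52, a MuvB subunit, fell under control siRNA (log2 fold change -0.52, SE 0.117, adjusted p = 0.0176). Of 13 condensin and cohesin genes, 4 fell under PHGDH siRNA and 1 under control siRNA; NCAPD2 fell in both (-1.09, adjusted p = 0.00446, and -0.93, adjusted p = 0.0108), and NCAPH2 and NCAPH fell under PHGDH siRNA (-0.77, adjusted p = 0.00848, and -0.91, adjusted p = 0.0232). Of 15 subunits of the anaphase-promoting complex, none passed in either arm (medians -0.19 and -0.19). Of 10 G1 cyclins and kinases, 1 fell in each arm, SKP2 (-0.67, adjusted p = 0.0335, and -0.62, adjusted p = 0.0453), the ubiquitin ligase subunit that degrades p27. No gene of these lists passed in the comparisons of PHGDH siRNA with control siRNA.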
